A study of Mus musculus with 6 samples.

Results

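The genes described here are the Toll-like receptors Tlr1 to Tlr9 and Myd88, the adaptor that most of these receptors share, and the question was which of their regulatory regions lay in open chromatin in bone marrow SSPCs (skeletal stem and progenitor cells) from young and middle-aged mice. The 10 genes were chosen by name from 21853 protein-coding genes with an annotated start, by a rule that uses no measured value, though with earlier results of these data known. ATAC-seq, in which a transposase cuts accessible DNA, was performed on 3 young and 3 middle-aged libraries. Both groups were untreated C57BL/6 mice carrying no named transgene or allele, and the labels give age in words only. The cells came from tibial and femoral marrow, were separated by centrifugation, grown in flasks and used at the first passage, and the labels name no sorting step. The assay read the whole culture, so a smaller share of cells with an open region and a less open region in each cell cannot be told apart. Several mice were used, but which library came from which mouse is not stated, and p-values measure the spread between these libraries.

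Toll-like receptors recognise molecules of microbes and of damaged cells. Tlr1, Tlr2, Tlr4, Tlr5 and Tlr6 act mainly at the cell surface, on lipopeptides, lipopolysaccharide and flagellin, whereas Tlr3, Tlr7, Tlr8 and Tlr9 sit in endosomes and sense nucleic acids. Myd88 carries the signal from the receptors, except Tlr3, to Irak kinases, Traf6 and NF-kB, and the Tlr4 and Tlr3 pathway through Ticam1 leads to Irf3. Macrophages express many of these receptors, and marrow stromal cells are also known to respond to lipopolysaccharide through Tlr4.

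The peak lists allowed 3 kinds of value. TSS peaks of a gene were called peaks within 1 kb of any start of its protein-coding transcripts. The strength of a peak was its percentile rank by −log10 q within its own library, where 100 is the strongest peak of that list, and its fold was the read pileup at the summit over the local background, with 1 added to each. Peaks of all libraries that overlapped were merged into a region, and each region is named by its gene and the distance in bp of its summit from the first start of that gene, with a minus sign upstream. Values given in threes are those of libraries 1, 2 and 3 of a group, in that order.

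The sequences of 7 stretches are given because the comparisons below turn on them or because they were among the regions with a match to the motifs searched. Capitals mark matches, on either strand, to 5 motifs: AP-1 (TGANTCA), a PU.1 core (GAGGAAG), RUNX (TGTGGTT), a kB-like motif (GGG and TTCC with a spacer of 3 bases) and an interferon element (GAAA and GAAA with a spacer of 2 bases). All are from mm10, the GRCm38.p6 assembly, and run 5′ to 3′ on the strand of the gene. The Tlr2 -3588 stretch lies upstream of Tlr2 at chr3:83845205-83845504 (minus strand) and holds a kB-like, an AP-1 and a RUNX match. The Tlr2 promoter stretch at chr3:83841768-83841858 (minus strand) comes from the RefSeq promoter table, stops before the first annotated start and holds a kB-like match. The Tlr2 +2143 stretch at chr3:83839474-83839773 (minus strand) is intronic and is one of the regions that separated the age groups.
Tlr2 -3588: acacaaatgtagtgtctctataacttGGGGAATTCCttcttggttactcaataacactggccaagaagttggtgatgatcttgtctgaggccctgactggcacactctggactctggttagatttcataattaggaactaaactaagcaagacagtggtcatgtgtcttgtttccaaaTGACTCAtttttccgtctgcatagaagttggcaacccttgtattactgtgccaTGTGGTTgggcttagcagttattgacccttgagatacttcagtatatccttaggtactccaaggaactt
Tlr2 promoter: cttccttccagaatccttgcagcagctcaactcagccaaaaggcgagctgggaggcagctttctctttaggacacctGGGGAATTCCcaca
Tlr2 +2143: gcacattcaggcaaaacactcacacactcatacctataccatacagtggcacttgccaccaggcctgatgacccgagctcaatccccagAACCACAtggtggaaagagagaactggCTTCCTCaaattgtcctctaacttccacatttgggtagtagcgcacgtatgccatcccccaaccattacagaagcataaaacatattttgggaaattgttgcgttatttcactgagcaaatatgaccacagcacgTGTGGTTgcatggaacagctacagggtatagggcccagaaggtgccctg

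The Tlr5 +5514 stretch, also intronic, separated the age groups and holds a kB-like match at chr1:182960152-182960451 (plus strand). The Tlr4 +15871 stretch at chr4:66843305-66843604 (plus strand) is the strongest of the Tlr4 intronic regions by fold, with an AP-1 and a RUNX match. The Tlr7 +11583 stretch at chrX:167318825-167319124 (minus strand) is one of the intronic regions of Tlr7 that all 6 libraries shared, with a RUNX match. The Tlr9 promoter stretch at chr9:106222348-106222597 (plus strand), from the RefSeq table, holds an AP-1 match and a PU.1 core.
Tlr5 +5514: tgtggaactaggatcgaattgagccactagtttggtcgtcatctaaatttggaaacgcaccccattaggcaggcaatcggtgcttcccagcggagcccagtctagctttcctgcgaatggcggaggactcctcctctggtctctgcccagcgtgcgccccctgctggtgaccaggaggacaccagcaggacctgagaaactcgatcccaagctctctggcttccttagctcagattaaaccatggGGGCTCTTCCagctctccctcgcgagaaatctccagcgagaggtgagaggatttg
Tlr4 +15871: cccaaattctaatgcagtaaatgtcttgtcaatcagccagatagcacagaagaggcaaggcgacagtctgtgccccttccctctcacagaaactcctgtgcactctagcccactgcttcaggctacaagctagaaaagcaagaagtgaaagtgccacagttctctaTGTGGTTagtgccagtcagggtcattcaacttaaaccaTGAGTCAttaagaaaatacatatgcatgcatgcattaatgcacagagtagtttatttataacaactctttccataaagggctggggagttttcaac
Tlr7 +11583: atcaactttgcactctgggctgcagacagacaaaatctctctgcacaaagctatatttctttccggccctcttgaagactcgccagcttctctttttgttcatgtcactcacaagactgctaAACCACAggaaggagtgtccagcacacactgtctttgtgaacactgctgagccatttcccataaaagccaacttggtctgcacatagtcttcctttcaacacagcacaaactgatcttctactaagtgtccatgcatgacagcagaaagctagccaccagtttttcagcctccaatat
Tlr9 promoter: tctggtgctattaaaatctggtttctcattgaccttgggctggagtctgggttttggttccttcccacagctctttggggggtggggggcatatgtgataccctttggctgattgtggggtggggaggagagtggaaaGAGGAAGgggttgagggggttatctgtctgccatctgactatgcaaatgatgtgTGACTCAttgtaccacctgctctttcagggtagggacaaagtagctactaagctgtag

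Of the 12031 regions that all 6 libraries shared and that lay away from every annotated start, 25.8% held the AP-1 motif, 32.1% the PU.1 core, 13.8% RUNX, 6.23% the kB-like motif and 5.16% the interferon element in the 300 bp around the summit. The receptor loci had 11 such regions, of which 5 held AP-1, 5 RUNX, 2 the PU.1 core, 2 the kB-like motif and 0 the interferon element. At starts, 15.2% of 10372 shared regions held the PU.1 core, against 4 of 8 in the loci described here: Tlr3 +284, Tlr4 -26, Tlr6 -888 and Tlr9 -23. AP-1 was in 1 of the 8 (4.75% of all), the kB-like motif in 1 (6.82%), RUNX in 0 (3.34%) and the interferon element in 0 (2.28%). The 8 include Tlr6 -9979, which lies at a start of Fam114a1 and not of Tlr6. In the RefSeq promoter table, 2.98% of 32851 promoters held the interferon element, and the Myd88 promoter and 1 of the 2 Tlr6 promoters were among them. Of the 10 promoters of these genes, 3 held the kB-like motif (4.65% of all), 2 the PU.1 core (10.6%), 1 AP-1 (6.75%) and 1 RUNX (4.4%). The table matched 8 of the 10 genes, and Tlr4 and Tlr7 were the others. These matches describe letters in a window and nothing more.

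The lists differed in length and depth. Young lists held 27628 to 43941 peaks and middle-aged lists 46364 to 48344, and young 3 had the lowest background, 1.65 reads per base against 2.40 to 3.75 in the other libraries. The SSPC label was checked against marker genes: of 10 SSPC and stromal markers, the TSS was called for 8, 7 and 3 in young libraries 1, 2 and 3, respectively, and for 7, 8 and 8 in the middle-aged ones. Lepr and Prrx1, of that list, had none in any library. Of 12 macrophage and monocyte markers, 11 to 12 had a TSS peak in every library, with Ptprc, Spi1, Adgre1 and Cd68 called in all 6, and the sum of their ranks ran from 580 to 678 in young and from 727 to 767 in middle-aged libraries, groups that did not overlap, as the sums over all protein-coding genes did not. Of 8 endothelial markers 2 to 5 were called, of 6 B cell markers 0 in young and 1 (Pax5) in middle-aged libraries, and of 6 T cell and 6 hepatocyte markers 0. The cultures thus carried called peaks at starts of macrophage genes beside stromal ones, and their part in the values of the receptors was not tested.

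Most receptors had a called peak within 1 kb of a start at both ages. Tlr2, Tlr3, Tlr4, Tlr5, Tlr6, Tlr9 and Myd88 had a TSS peak in all 6 libraries, which is 7 of 10 genes, beside 48.4% of all protein-coding genes. Within 250 bp of a start, 5 genes (Tlr2, Tlr3, Tlr4, Tlr9 and Myd88) were called in all 6 libraries. The 48.4% above holds for 1 kb, and the share of all genes within 250 bp is not given here. Tlr7 and Tlr8 were called in some libraries and Tlr1 in 0, whereas 38.5% of all genes had no TSS peak in any library. Young libraries 1, 2 and 3 had 7, 8 and 7 of the 10 genes called, respectively, and the middle-aged ones 7, 7 and 9. Young libraries averaged 7.33 ± 0.577 genes (SD, n = 3) and middle-aged libraries 7.67 ± 1.15 (SD, n = 3), so the difference of 0.333 was smaller than the spread. It turned to -0.333 without middle-aged 3 and to -0.667 with equally long lists, the best 27628 peaks of each library. At equal lengths 5 of the 10 genes (Tlr2, Tlr3, Tlr4, Tlr6 and Myd88) were called in all 6 libraries, and Tlr5 and Tlr9 no longer were. Of the 21853 protein-coding genes, 9971 were called in all 6 at these lengths.

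**Figure D1:**
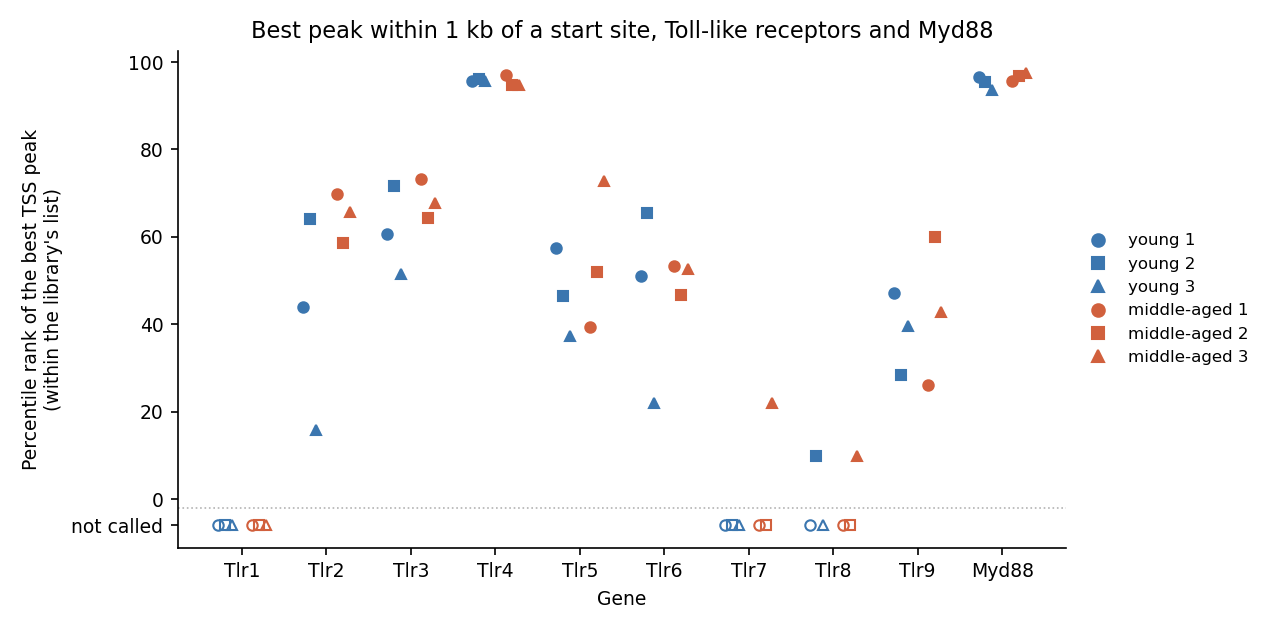
Percentile rank of the best peak within 1 kb of a start (vertical axis, 100 is the strongest peak of a library) for each of the 10 genes, with 1 point per library; open symbols below the dotted line are libraries with no such peak. Tlr4 and Myd88 lie between 93.6 and 97.4 in all 6 libraries, while Tlr1 has no peak and Tlr7 and Tlr8 have a peak in 1 and 2 libraries.

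Among the surface receptors, Tlr4, the receptor for lipopolysaccharide, had the strongest start. Its best TSS peak, at chr4:66827301-66828101, had a rank of 95.6, 96.0 and 95.7 in the young libraries and 97.1, 94.8 and 94.6 in the middle-aged libraries. The groups overlapped and the rank difference, middle-aged minus young, was -0.243 (exact permutation test, two-sided p = 1). Its fold was 12.2 to 15.2 in middle-aged and 11.8 to 13.0 in young libraries. With summit height over the background of the whole list in place of rank, the Tlr4 difference was 0.32 on the log2 scale and the groups did not overlap (two-sided p = 0.1 by the exact permutation test, the lowest value possible with 3 against 3 libraries), as in 60.8% of all genes called in all libraries. Among 10569 genes with a TSS peak in all 6 libraries, 83.2% had a lower mean rank than Tlr4.

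Tlr2, which senses bacterial lipopeptides together with Tlr1 or Tlr6, had a much weaker start that varied among young libraries. Its peak over the first exon, at chr3:83841154-83841855, ranked 43.9, 64.0 and 15.7 in the young libraries and 69.9, 58.6 and 65.7 in the middle-aged libraries. Young 2 lay among the middle-aged libraries and young 3, the shallowest, far below them. The mean was 41.2 ± 24.3 (SD, n = 3) against 64.7 ± 5.69 (SD, n = 3), and the difference of 23.5 was not larger than the variation among libraries (two-sided p = 0.2 by the exact permutation test, Benjamini-Hochberg adjusted p = 0.418 over all genes called in all 6 libraries). It was 10.8 without young 3, 34.9 without young 2 and 11.3 with equally long lists.

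Tlr5, the flagellin receptor, was called through a peak upstream of its start and not at the start itself. The Tlr5 -935 region ranked 57.5, 46.5 and 37.3 in the young libraries and 39.3, 52.0 and 72.7 in the middle-aged libraries, so the groups overlapped (difference 7.60, exact permutation test, two-sided p = 0.6). A peak within 250 bp of the start was called in middle-aged 2 alone, at a rank of 10.4.

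Tlr6, the partner of Tlr2 for some lipopeptides, was similar. The Tlr6 -888 region was called in all 6 libraries, at ranks of 40.8, 65.4 and 22.0 in young and 53.4, 46.7 and 52.6 in middle-aged libraries. A second region, Tlr6 -10, covered the start in young 1 (rank 51.0) and middle-aged 3 (rank 41.8) only. By its best TSS peak Tlr6 differed by 4.76 between the groups, which overlapped (exact permutation test, two-sided p = 0.8). Once list lengths were made equal, the difference turned to -18.2 and the groups no longer overlapped (two-sided p = 0.1 by the exact permutation test), as in the same direction for 3.71% of all genes at these lengths.

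Tlr1, the other partner of Tlr2 and a neighbour of Tlr6 on chromosome 5, had 0 peaks in any library, neither at its 2 starts nor elsewhere in the gene or the 10 kb upstream of it (chr5:64924679-64943563). A region was listed only where the peak caller passed its threshold, so weaker accessibility of Tlr1 was not detectable from these lists.

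Of the endosomal receptors, Tlr3, which binds double-stranded RNA, had the strongest start. Its TSS peak ranked 60.7, 71.6 and 51.4 in the young libraries and 73.2, 64.2 and 67.8 in the middle-aged libraries. The groups overlapped (difference 7.19, exact permutation test, two-sided p = 0.4). Equal list lengths turned it to -5.62. The region, chr8:45410046-45410775, also overlaps the antisense gene Gm45542, and a peak has no strand. Of the Tlr3 starts, those at 45410376 and 45410380 lay under a peak in all 6 libraries. The first start, at 45410619, lay under a peak in 3 libraries and the start at 45410558 in 2. No library had a peak within 1 kb of the start at 45398286.

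Tlr9, the receptor for unmethylated CpG DNA, was covered by the Tlr9 -23 region in all 6 libraries, but with low ranks. They were 29.4, 13.3 and 39.7 in the young libraries and 26.2, 60.0 and 32.7 in the middle-aged libraries. An intronic region at Tlr9 +603 was the better TSS peak in young 1, young 2 and middle-aged 3 and was absent from the lists of young 3 and middle-aged 1. Taking the better of both, Tlr9 differed by 4.55 between the groups, which overlapped (exact permutation test, two-sided p = 0.8).

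Tlr7 and Tlr8, neighbouring genes on chromosome X that sense single-stranded RNA, were hardly called at their starts. Tlr7 had a TSS peak in middle-aged 3 alone, at a rank of 21.9. Tlr8 had one in young 2 (rank 9.84) and middle-aged 3 (rank 9.91), and no other peak in its locus. Middle-aged 3, in which both were called, also had the longest list.

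For Myd88, the adaptor, the TSS peak was strong in every library. It ranked 96.7, 95.5 and 93.6 in the young libraries and 95.8, 96.8 and 97.4 in the middle-aged libraries, so the groups overlapped. The rank difference was 1.42 (two-sided p = 0.2 by the exact permutation test, Benjamini-Hochberg adjusted p = 0.418). Its fold was 12.2, 12.3 and 11.8 in young and 13.2, 14.4 and 14.3 in middle-aged libraries. Every middle-aged fold was above every young one (exact permutation test, two-sided p = 0.1), as in 38.5% of all genes called in all libraries, whereas 0.114% had the reverse order. Summit height over the background of the whole list did not overlap either. It was 37.9, 45.9 and 39.5 in young and 53.1, 60.4 and 60.9 in middle-aged libraries. By height, 60.8% of all genes called in all libraries had every middle-aged value above every young one.

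That peak did not lie at the start of the full-length transcript. It covered chr9:119340871-119341563, with the start of a short Myd88 transcript at 119341411 inside it and starts of Acaa1a, a peroxisomal thiolase gene on the opposite strand, within 1 kb. The full-length start at 119340041 had its own peak in young 1 (rank 27.6) and middle-aged 3 (rank 56.1) only, and also lies within 1 kb of an Acaa1a start. How much of these peaks belongs to Myd88 and how much to Acaa1a cannot be told apart in these lists.

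By mean rank over the 6 libraries the order of the 7 genes was Myd88 (95.9), Tlr4 (95.6), Tlr3 (64.8), Tlr2 (52.9), Tlr5 (50.9), Tlr6 (48.5) and Tlr9 (40.7). Myd88 and Tlr4 changed places between libraries, with Myd88 higher in 3 of 6. Tlr4 was above Tlr3 in 6 of 6 libraries by 30.8 ± 7.76 (SD, n = 6), and Tlr3 above Tlr2 in 6 of 6 by 11.9 ± 12.8 (SD, n = 6). Tlr2, Tlr5, Tlr6 and Tlr9 did not keep an order, since each was above the next in 3 or 4 of 6 libraries. Against all genes called in all 6 libraries these starts were weak: 17.2% of genes had a lower mean rank than Tlr3, 8.25% than Tlr2, 7.20% than Tlr5, 6.06% than Tlr6 and 3.16% than Tlr9. No test was attached to this order.

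Of the 7 genes, 0 had TSS ranks that did not overlap between the age groups in either direction, where 30.6% of all genes called in all libraries had every middle-aged rank above every young one and 0.274% the reverse. The median rank difference of the 7 was 4.76, beside 4.97 for all such genes. The smallest two-sided p of the exact permutation test was 0.1, so no single gene could pass 0.05.

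The wider loci, each gene with the 10 kb upstream, held further peaks. These were assigned by position alone, and whether they act on the gene was not tested. The 10 loci together held 25, 25 and 20 peaks in young libraries 1, 2 and 3, respectively, and 24, 26 and 35 in the middle-aged ones. Young libraries averaged 23.3 ± 2.89 peaks (SD, n = 3) and middle-aged libraries 28.3 ± 5.86 (SD, n = 3), which is a ratio of 1.21, beside a ratio of 1.27 for the loci of all protein-coding genes. The groups overlapped, and the difference of 5 fell to 1.67 without middle-aged 3 and turned to -1 with equally long lists.

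Merging gave 34 regions, of which 13 lay at a start. All 6 libraries shared 19 of them, or 55.9%, beside 35.1% of the 63840 regions of the whole series. A single library held 5 regions, of which 4 were in middle-aged 3. Tlr4 had 8 regions and Tlr7 had 7, Tlr5 had 5, Tlr2, Tlr6 and Tlr9 had 3 each, Tlr3 and Myd88 had 2 each, Tlr8 had 1 and Tlr1 had 0.

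**Figure D2:**
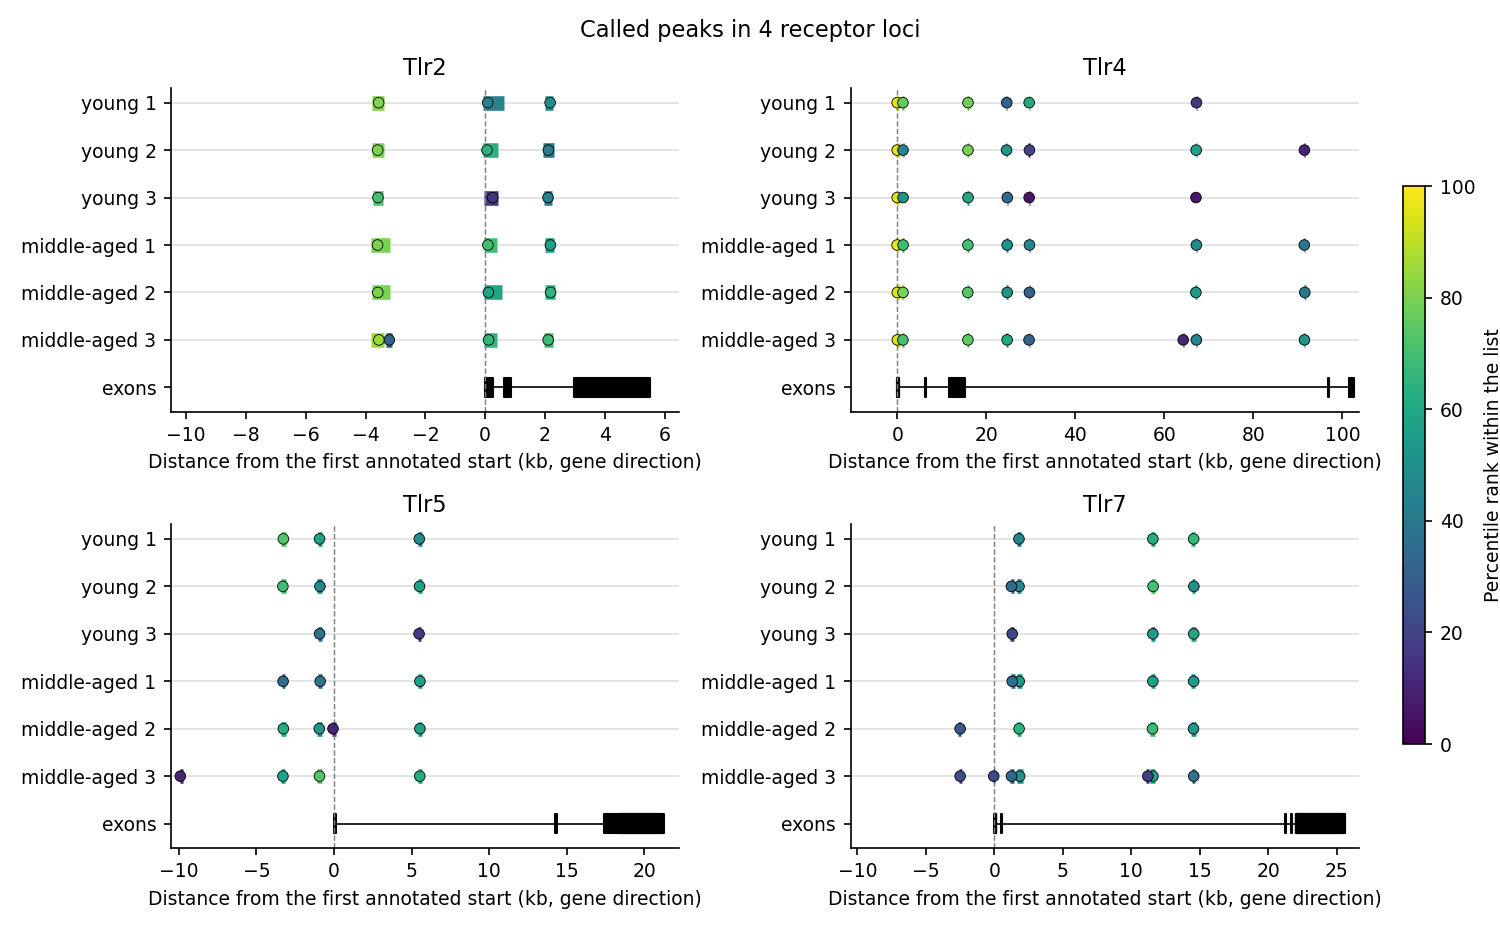
Called peaks in the loci of Tlr2, Tlr4, Tlr5 and Tlr7, by distance in kb from the first annotated start in the direction of the gene (horizontal axis), with 1 row per library and the exons in black below. Bars are peaks, circles are summits and the colour is the percentile rank within the list; Tlr4 has a strong peak at its start and weaker intronic ones, and Tlr7 has intronic peaks in every library with a peak at its start in middle-aged 3 only.

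Tlr4 spans 102701 bp and, besides its start, had 5 further regions that all libraries shared. The strongest by fold was Tlr4 +15871, with ranks of 77.7, 80.0 and 59.5 in the young libraries and 69.7, 73.6 and 75.2 in the middle-aged libraries. Its groups overlapped (difference 0.461, exact permutation test, two-sided p = 1). The mean differences of the other 4, Tlr4 +1274, Tlr4 +24679, Tlr4 +29655 and Tlr4 +67163, ran from 7.06 to 22.4, and the groups of each overlapped. Young 3 had the lowest rank at Tlr4 +29655 and at Tlr4 +67163, 5.29 at both.

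The region Tlr4 +91468 was called in 1 young and 3 middle-aged libraries, with a rank of 9.84 in young 2 and of 39.3, 40.0 and 52.5 in middle-aged 1, 2 and 3. Tlr9 +3762, in coding sequence, was likewise called in 1 young library (young 1, rank 28.0) and in all 3 middle-aged libraries (ranks 44.6, 38.9 and 42.7). Tlr7 -2497 was called in 0 young and 2 middle-aged libraries, at ranks of 27.0 and 23.0. These 3 of 34 regions were called in at least 2 more middle-aged than young libraries, as were 13.7% of all regions, and 0 of 34 went the other way, against 0.741%. In neither direction was the count above the share of the whole series.

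Tlr2 had an upstream region stronger than its start. Tlr2 -3588 ranked 81.1, 80.7 and 70.4 in the young libraries and 80.4, 80.2 and 84.9 in the middle-aged libraries, and the groups overlapped (difference 4.42, exact permutation test, two-sided p = 0.6). Its fold, 8.36, 8.59 and 8.12 in young and 9.11, 9.23 and 9.81 in middle-aged libraries, did not overlap (exact permutation test, two-sided p = 0.1). It is the stretch printed above with kB-like, AP-1 and RUNX matches.

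Tlr2 +2143, between the first exons and the coding exon, was lower in every young library. It ranked 48.6, 42.0 and 41.8 in the young libraries and 56.6, 64.6 and 68.5 in the middle-aged libraries, a mean of 44.2 ± 3.87 against 63.2 ± 6.08 (SD, n = 3 each). The difference was 19.1 (exact permutation test, two-sided p = 0.1) and fell to 9.79 with overlapping groups at equal list lengths (exact permutation test, two-sided p = 0.6). By fold the groups overlapped, with 4.66, 4.51 and 5.70 in young and 5.47, 6.49 and 6.48 in middle-aged libraries.

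Tlr5 +5514 also separated the groups, at 48.6, 56.7 and 17.5 in the young libraries and 57.3, 57.4 and 61.6 in the middle-aged libraries. Young 2 lay just below the lowest middle-aged library and young 3 far below. The difference of 17.8 (exact permutation test, two-sided p = 0.1) was 6.10 without young 3 and 2.44 at equal list lengths (two-sided p = 0.9 by the exact permutation test). With peaks of a −log10 q of at least 5 it was 19.2 and the groups overlapped (two-sided p = 0.3 by the exact permutation test). Its fold did not overlap either, at 5.71, 6.44 and 5.29 in young and 6.83, 7.22 and 6.96 in middle-aged libraries. Another Tlr5 region, Tlr5 -3286, was called in all libraries but young 3.

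**Figure D3:**
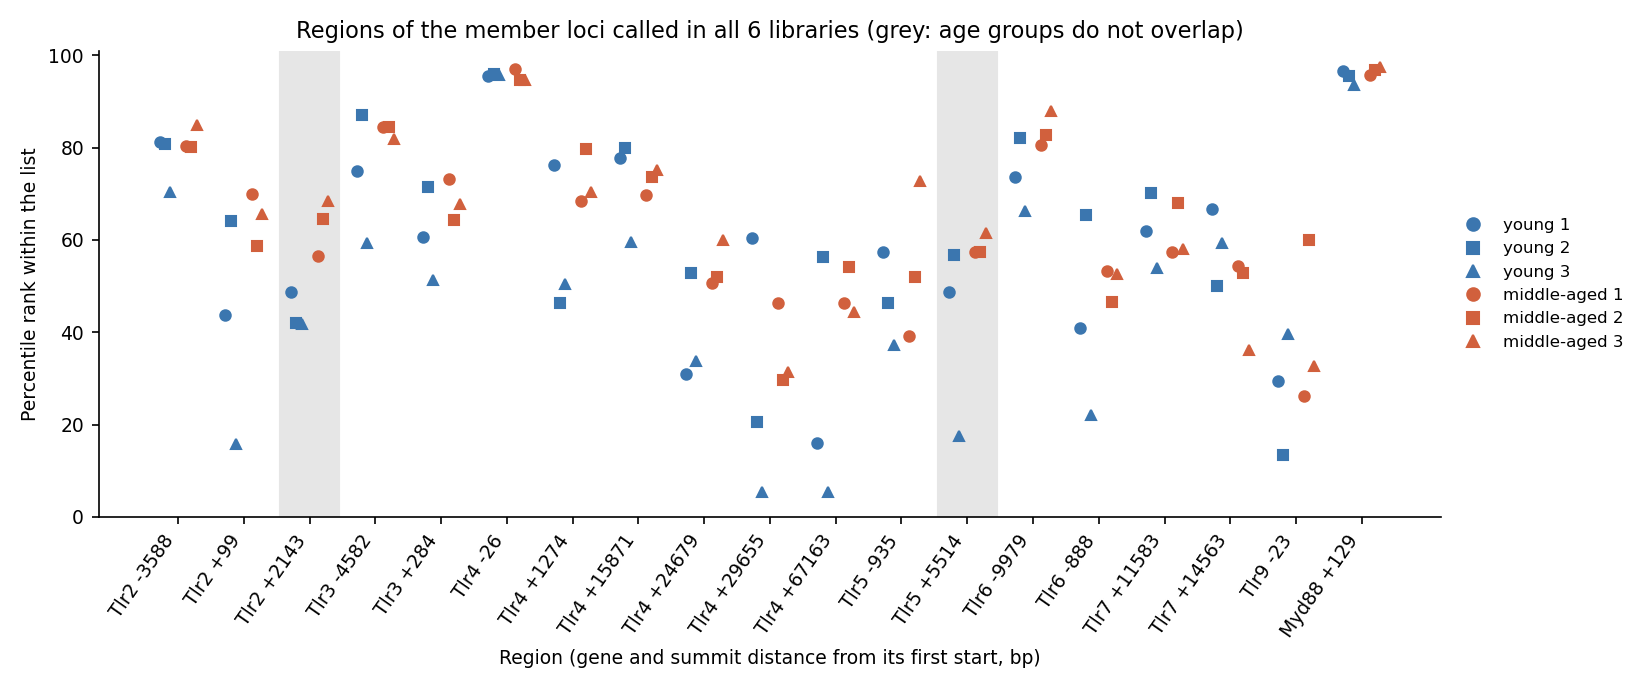
Percentile rank within the list (vertical axis) of the 19 regions of the receptor and Myd88 loci that were called in all 6 libraries, with 1 point per library. Grey marks Tlr2 +2143 and Tlr5 +5514, where every middle-aged library lies above every young one; in the other 17 regions the age groups overlap.

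These 2 of 19 regions had every middle-aged rank above every young one, beside 24.3% of the 22403 regions that all libraries shared, and 0 of 19 the reverse, beside 0.495%. By fold the count was 3 of 19 (Tlr2 -3588, Tlr5 +5514 and Myd88 +129), beside 27.4%, and 0 of 19 the reverse, beside 0.46%. The median rank difference of the 19 was 8.14 and that of all shared regions 6.74. Neither count was above the share of the whole series. With equally long lists, 0 of 14 shared regions were higher and 3 (Tlr4 +15871, Tlr6 -888 and Tlr7 +11583) were lower in middle-aged libraries, beside 6.97% higher and 6.2% lower among the 18085 regions still shared at these lengths.

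Tlr7 had no TSS peak in 5 of 6 libraries, yet all 6 shared 2 of its intronic regions. Tlr7 +11583 ranked 61.9, 70.1 and 53.9 in the young libraries and 57.3, 68.0 and 58.0 in the middle-aged libraries. Tlr7 +14563 ranked 66.8, 50.1 and 59.4 in young and 54.4, 52.9 and 36.1 in middle-aged libraries. The groups of both overlapped, with differences of -0.892 and -11.0 (exact permutation test, two-sided p = 0.9 and 0.3). Tlr7 +1809 was called in all libraries but young 3, and Tlr7 +1281 in 2 libraries of each group.

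Tlr3 -4582 was stronger than the start of Tlr3, with ranks of 75.0, 87.1 and 59.3 in the young libraries and 84.4, 84.5 and 81.8 in the middle-aged libraries. Its groups overlapped (difference 9.77, exact permutation test, two-sided p = 0.4). Tlr6 -9979, with ranks of 66.3 to 82.2 in young and 80.5 to 87.8 in middle-aged libraries, covers a start of Fam114a1 and the gene Mir574 and need not belong to Tlr6.

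The other genes of the pathway were taken from lists of co-factors, adaptors, kinases, transcription factors, inhibitors and relatives of the interleukin-1 receptor, 44 genes in all. TSS peaks were found for 36, 36 and 37 of them in young libraries 1, 2 and 3, respectively, for 38, 37 and 38 in the middle-aged ones, and for 36 in all 6 libraries. As shares these were 81.8% to 84.1% in young and 84.1% to 86.4% in middle-aged libraries. Of all protein-coding genes, 49.5% to 56.8% were called in young libraries, 57.4% to 58.0% in middle-aged ones and 48.4% in all 6. In these lists, 10 of the 36 had every middle-aged rank above every young one and 1 the reverse, beside 30.6% and 0.274% of all genes called in all libraries. The median difference was 4.62, beside 4.97 for all such genes. The share of the pathway genes that were higher was thus near that of all genes.

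The other mouse receptors were Tlr11, Tlr12 and Tlr13. Tlr11 was called in all 6 libraries and was the 1 gene of the lists that was lower in every middle-aged library, at 72.8, 69.3 and 79.9 in the young libraries and 68.3, 69.2 and 46.2 in the middle-aged libraries (difference -12.7, exact permutation test, two-sided p = 0.1). The margin between young 2 and middle-aged 2 was under 1 rank unit. Tlr12 was called in no library.

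Of 9 co-factors that help receptors bind ligands or reach their compartment, 7 were called in all 6 libraries, and 3 of these (Cd36, Hsp90b1 and Cnpy3) were higher in every middle-aged library. Cd14 and Ly96, which present lipopolysaccharide to Tlr4, were called in all libraries, with Cd14 at 23.4 to 51.5 in young and 49.1 to 66.4 in middle-aged libraries. Those ranges overlapped. Lbp and Ly86 were called in middle-aged 3 alone.

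All 4 other adaptors (Tirap, Ticam1, Ticam2 and Sarm1) and all 15 kinases and ubiquitin ligases were called in all 6 libraries, beside 48.4% of all protein-coding genes. Of the latter, 5 were higher in every middle-aged library: Traf3, Irak1, Tab1, Tab2 and Traf6. Traf3, a ubiquitin ligase of the interferon branch, ranked 56.9, 66.8 and 3.12 in the young libraries and 75.0, 78.8 and 70.8 in the middle-aged libraries, so its difference of 32.6 (exact permutation test, two-sided p = 0.1) was set partly by the low value of young 3. Irak1, a kinase recruited by Myd88, ranked 16.1, 64.2 and 48.8 in young and 72.6, 69.9 and 68.9 in middle-aged libraries (difference 27.4, two-sided p = 0.1 by the exact permutation test). Tab1, a partner of the kinase Map3k7, differed by 23.8, with young 3 lowest at 27.9.

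Of 5 transcription factors, Nfkb1, Rela, Irf3 and Irf5 were called in all 6 libraries with overlapping groups. Irf7, a factor of the interferon response, had a TSS peak in 0 young libraries and in middle-aged 1 (rank 30.1) and middle-aged 2 (rank 14.7). Among all genes with a TSS peak in any library, 4.51% were called in at least 2 more middle-aged than young libraries and 0.178% in at least 2 more young ones, and Irf7 was the only such gene among the 44.

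Of 4 inhibitors, Tollip, Tnfaip3 and Nfkbia were called in all 6 libraries and Sigirr in none. Tnfaip3, an enzyme that edits ubiquitin chains and dampens NF-kB, ranked 71.9, 75.4 and 62.1 in the young libraries and 89.1, 85.7 and 86.6 in the middle-aged libraries. Its groups did not overlap (difference 17.3, exact permutation test, two-sided p = 0.1), and Nfkbia was also higher in every middle-aged library. Of the interleukin-1 family receptors, which also signal through Myd88, Il1r1 and Il1rap were called in all 6 libraries and Il18r1 and Il1rl1 in none.

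**Figure D4:**
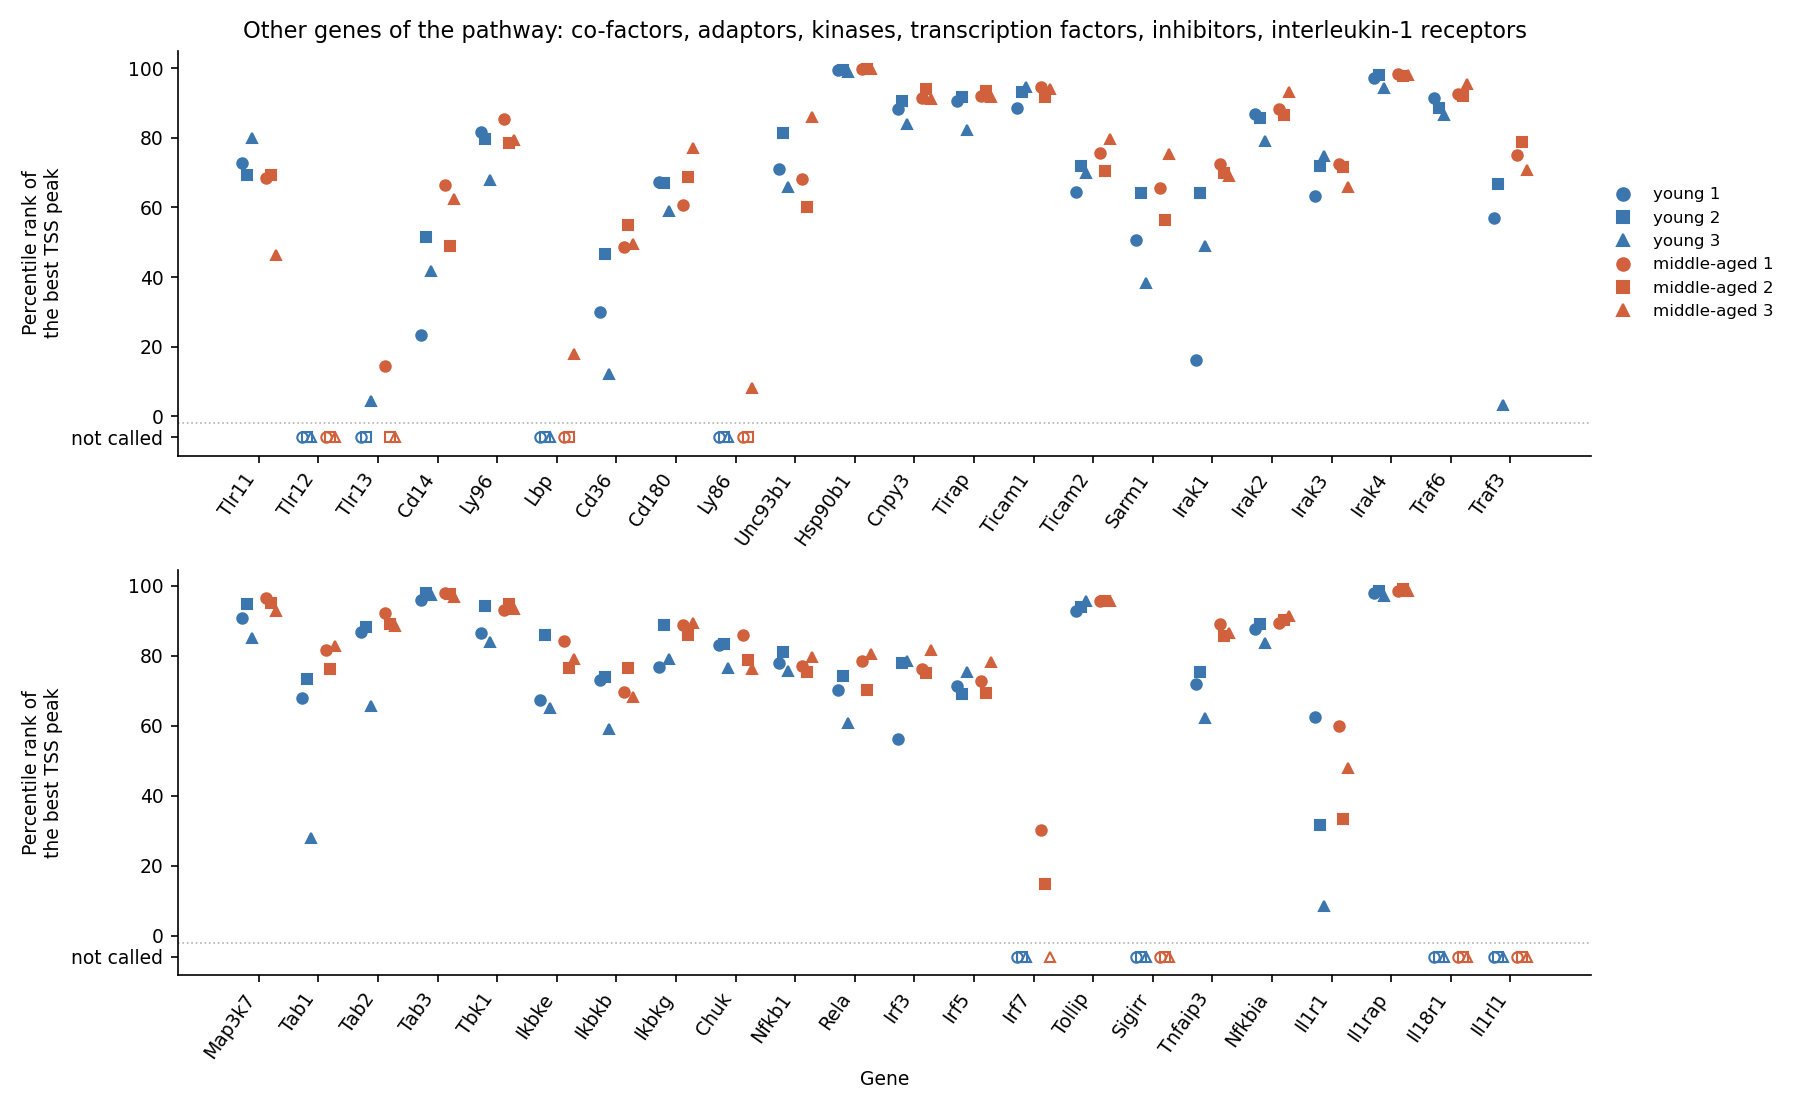
Percentile rank of the best TSS peak (vertical axis) for the 44 other pathway genes, with 1 point per library and open symbols below the dotted line where no TSS peak was called. Tlr12, Sigirr, Il18r1 and Il1rl1 have no peak in any library, and Traf3, Irak1, Tab1 and Tnfaip3 have every middle-aged point above every young one.

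Each gene was also compared with the 36 pathway genes called in all libraries by the root mean square difference in rank over the 6 libraries. Myd88 was nearest to Irak4, the kinase it binds, at 1.61 rank units, and Tlr4 to the inhibitor Tollip at 1.65. Tlr3 was nearest to Cd180 (7.99), Tlr2 and Tlr5 to Sarm1 (10.6 and 13.4), and Tlr6 and Tlr9 to Cd36 (12.9 and 18.1). Nearness here means a like level of the start peak in each library.

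Summed ranks did not overlap between the age groups for the macrophage list, nor for the SSPC list (116 to 285 in young and 350 to 439 in middle-aged libraries), the other pathway genes or all protein-coding genes. Of the 11 macrophage markers called in all 6 libraries, 4 (Adgre1, Fcgr1, Mertk and C1qb) had every middle-aged rank above every young one, beside 30.6% of all genes. The median rank difference was 9.53 for these 11 markers, 13.3 for the 3 SSPC markers called in all 6 libraries, 4.76 for the 7 receptor and adaptor genes and 4.97 for all genes. The remaining macrophage marker, Csf1r, went the other way. It was called in young 2 (rank 17.3) and young 3 (rank 6.19) and in 0 middle-aged libraries. Of all genes with a TSS peak in any library, 0.178% were called in at least 2 more young than middle-aged libraries. Spi1, which encodes PU.1, ranked 44.0, 72.7 and 36.2 in the young libraries and 77.8, 71.9 and 76.9 in the middle-aged libraries. For Spi1, young 2 lay within the middle-aged range and young 3 was lowest. The macrophage markers did not share a single pattern, since Lyz2 was lowest in young 1 and Itgam in young 2. Of the SSPC markers, Ebf3 ranked 49.9, 56.9 and 21.6 in young and 70.7, 82.7 and 76.1 in middle-aged libraries, with no overlap, while Kitl and Runx2 overlapped (differences 4.42 and 13.3). The part of either cell type in the receptor values was not tested.

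**Figure D5:**
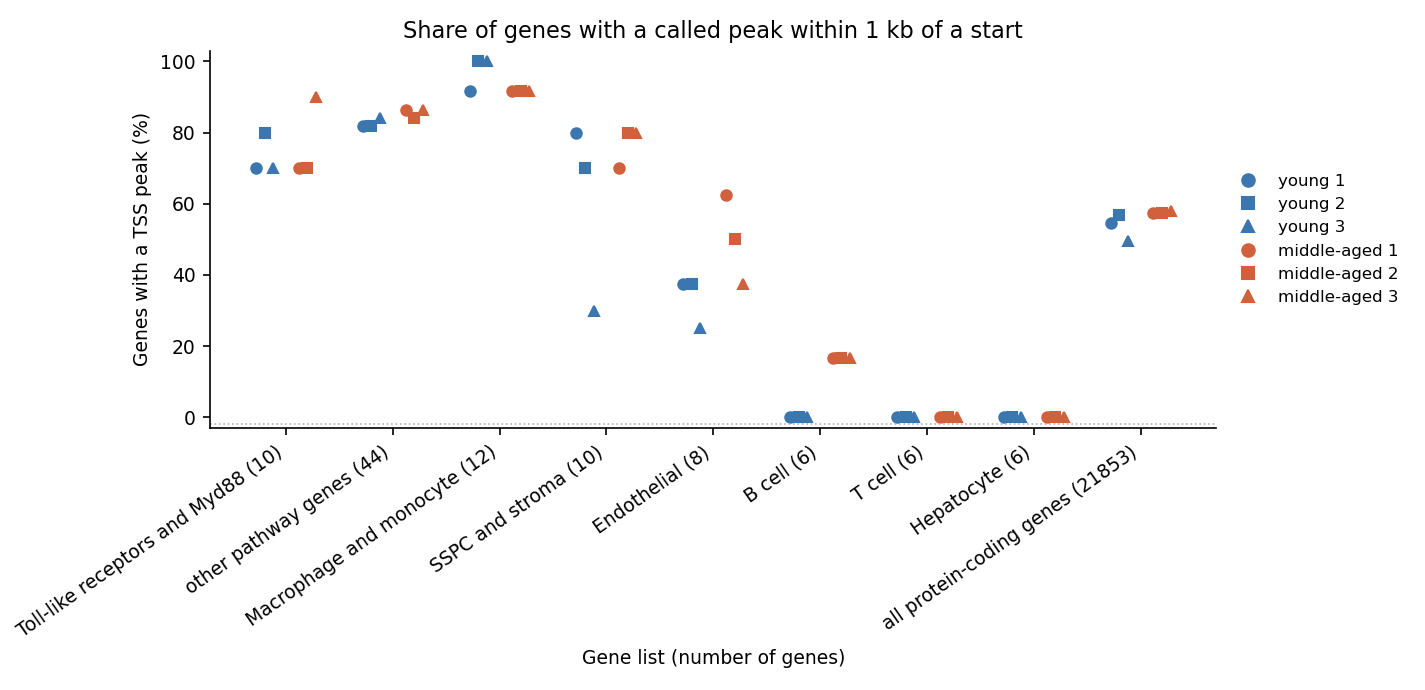
Percent of the genes of each list with a called peak within 1 kb of a start (vertical axis), with 1 point per library and the number of genes of each list in brackets. Macrophage and monocyte genes lie at 91.7 to 100 percent in all libraries, the Toll-like receptors and Myd88 at 70 to 90 percent, and T cell and hepatocyte genes at 0.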

How the data were processed

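ATAC-seq was performed on 3 young and 3 middle-aged SSPC libraries, grouped by the sample titles. Reads were demultiplexed by the authors with bcl2fastq, mapped to mm10 (Bowtie2), freed of duplicates (Sambamba) and passed to MACS, which gave 1 list of peaks per library; the transposase shift is not given in the sources used here and could move peak edges by a few bases. Their DiffBind comparison needs reads and was not repeated. In the deposited lists the score is −log10 q in whole-number form, and the fold is a ratio, on a linear scale, of summit pileup to local background. The deposited −log10 p and −log10 q belong to the summit and the library, with no control library stated. From these, percentile ranks, overlaps (at least 1 bp) with GENCODE starts of 21853 genes, merged regions and exact permutation tests over 20 assignments were computed (Python 3.11.15, numpy 2.4.6, pandas 2.3.3, scipy 1.17.1). Pileup and background were solved from fold and p, and gave whole pileups for 100% of peaks in each list (within 0.001 on the −log10 p scale); the lowest background, 1.65 to 3.75 reads per base, stood for depth. The solving of pileups, the no-overlap rule and the permutation test were tested on simulated data.

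The genes and all lists were chosen with earlier results of these data known. Named are all 10 genes, pathway genes called in no library, in at least 2 more libraries of 1 group or, for the largest 3 in each direction, with non-overlapping ranks, the nearest gene by rank, and regions called in all libraries of a group or at a start; Cd14, Ly96, Spi1, Ebf3 and the other genes given by name were chosen after their values were seen. The settings varied were the −log10 q (at least 5), equally long lists, thinning, other windows, overlaps and measures, each library left out and a replicate block. The titles number the replicates, but same-numbered libraries did not deviate together over 22403 shared regions (correlations 0.00276, -0.00309 and -0.0414), so they were not treated as pairs.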

Additional observations from a re-analysis of the deposited data

How the results depend on the processing

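The lists hold no reads and differ in length and depth, and with 3 libraries per group no single gene could pass 0.05. With equally long lists of 27628 peaks, the difference (middle-aged minus young) in genes with a TSS peak turned to -0.667, that in peaks of the loci to -1, that in the TSS rank of Tlr3 to -5.62 and of Tlr6 to -18.2, and 1 gene, in place of 0, had non-overlapping TSS ranks, lower in middle-aged libraries as for 3.71% of all genes. Ranking by fold turned Tlr6 to -1.02, and log2 summit height turned Tlr4 to 0.32. Under a −log10 q of at least 5, 1 region in place of 2 did not overlap, and by summit height 7 did not, where 22.3% and 40.2% of all shared regions, respectively, were higher in every middle-aged library; these region settings were chosen after seeing the data. With each library left out in turn, the difference in genes called at a TSS ran from -0.333 (without middle-aged 3) to 0.667. That in peaks of the loci ran from 1.67 to 7.17. The count of genes with non-overlapping ranks ran from 0 to 2, and the share of all genes is not given for it. The count of regions ran from 2 to 10. The 10, found without young 2, were 9 higher and 1 lower in middle-aged libraries. Of all shared regions, 50.7% were then higher and 0.745% lower. The TSS rank difference ran from -3.98 (without middle-aged 2; -0.488 without young 2) to 12.9 for Tlr9, from -7.30 (without young 3) to 14.4 for Tlr6, from -1.06 to 0.195 (without middle-aged 3; 0.132 without middle-aged 2) for Tlr4, from -1.43 (without middle-aged 3) to 15.3 for Tlr5, and from 10.8 (without young 3) to 34.9 (without young 2) for Tlr2. The cause was not tested. A replicate block, the mean of the differences between same-numbered libraries, equals the difference of the group means by arithmetic. Its values (0.333 for genes with a TSS peak and 5 for peaks of the loci) therefore could not differ and test nothing. The smallest possible p of the block was 0.25. Of the values of single genes and regions, 51 kept their direction under other settings and 4 were reversed. With 1 library left out, 48 kept it and 6 were reversed. The 2 regions counted here were picked because they separated the age groups. Genes no longer called in all 6 libraries under a setting are missing from these counts. They were Tlr5 and Tlr9 with equally long lists, and Tlr5 and Tlr6 within 250 bp of a start. Some settings returned the same values as the main one: an overlap of at least 100 bp did, and the 250 bp window did for Tlr2, Tlr3, Tlr4 and Myd88.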
